A study of Homo sapiens with 12 samples.

Results

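The levels of 38 genes of the ATF4 programme and the unfolded protein response were read in HPB-ALL and KOPTK1, 2 human lines of T-cell acute lymphoblastic leukemia (T-ALL). Members were taken by name from both deposited tables, and all 38 were found among the 58288 genes listed. They comprise 20 genes of the ATF4 branch and 18 genes of the branch that serves the endoplasmic reticulum (ER). The 12 RNA-seq libraries fall into 4 groups of 3: HPB-ALL cells with control shRNA, HPB-ALL cells with SHQ1 shRNA, and the same pair in KOPTK1. The control shRNA was directed against GFP, both shRNAs were delivered by pLKO.1 lentivirus, and every culture was kept with puromycin at 2 μg/mL for 48 h before total RNA was taken and depleted of rRNA. SHQ1 is an assembly factor of H/ACA small nucleolar ribonucleoproteins, and the experiment asked what its depletion does to the RNA of T-ALL cells.

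The table of each line gives an average log2 CPM (counts scaled to the library total) per gene over the 6 libraries of that line, control and SHQ1 shRNA together. The columns of single libraries carry only numbers that match no sample, and were not used. The authors' own comparison, held in the same tables, was not used either. The effect of SHQ1 depletion on these genes, the depth of each library and the spread between replicates were therefore not read here, and each value below is the authors' average with no SD. Levels are given as mean RPKM, that is CPM per kilobase of summed exon, which allows genes of different length to be compared. The tables were normalized separately, so a difference between the lines sets 1 average beside another and was not tested. Since each average holds control and depleted libraries together, the averages alone cannot tell a difference of the lines from an unlike response to SHQ1 depletion. The libraries are bulk samples, in which fewer cells of a type and less RNA per cell cannot be told apart.

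The integrated stress response and the unfolded protein response are linked pathways. When unfolded protein accumulates in the ER, the membrane sensors PERK (EIF2AK3), IRE1 (ERN1) and ATF6 are activated. PERK phosphorylates the translation factor eIF2, which lowers general translation but favours translation of ATF4, a transcription factor of amino acid synthesis and transport, redox balance and, through DDIT3, cell death. IRE1 splices the XBP1 mRNA, and spliced XBP1 and cleaved ATF6 switch on chaperones, folding enzymes and ER-associated degradation. Amino acid shortage and other stresses reach ATF4 through other eIF2 kinases. Lymphocytes use XBP1 during development and secretion.

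The DNA elements of these factors are shown first, since they are the sites through which these factors are known to act on genes of each branch. RefSeq promoter windows of GRCh38.p14, each from 250 bases before to 50 bases after a transcription start, were matched to 36 of the 38 members, in 49 windows, with no entry for PSPH and SLC7A11. Each stretch below is written 5′ to 3′ on the strand of its gene and lies before the start, and capitals mark the match. The first set holds the ER stress response element, CCAAT followed by 9 free bases and CCACG, in 6 ER-branch members. In CRELD2, CALR and the downstream site of HSP90B1 the element reads on the opposite strand, so that it appears as CGTGG, 9 bases and ATTGG.
HSPA5 (chr9:125241371-125241429, minus strand): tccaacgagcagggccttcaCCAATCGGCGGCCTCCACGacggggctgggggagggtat
XBP1 (chr22:28800598-28800626, minus strand): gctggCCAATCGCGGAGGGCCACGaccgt
PDIA6 (chr2:10812845-10812879, minus strand): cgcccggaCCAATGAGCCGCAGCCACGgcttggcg
CRELD2 (chr22:49918534-49918592, plus strand): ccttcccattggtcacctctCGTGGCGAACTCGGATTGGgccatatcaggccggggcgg
CALR (chr19:12938364-12938422, plus strand): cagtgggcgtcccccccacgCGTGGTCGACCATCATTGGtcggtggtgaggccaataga
HSP90B1 (chr12:103930216-103930339, plus strand): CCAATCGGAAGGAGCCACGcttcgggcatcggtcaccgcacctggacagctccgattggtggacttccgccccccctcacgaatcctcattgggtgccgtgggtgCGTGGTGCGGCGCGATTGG

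The second set holds ER stress response element II, ATTGG followed by 1 free base and CCACG, in 3 members. It reads on the gene strand in HERPUD1 and on the opposite strand in HYOU1 and SDF2L1. HYOU1 holds 2 copies with the same letters, and the first of them overlaps the core of the unfolded protein response element, TGACGTGG, with which it forms a single run of capitals. HERPUD1 also holds, upstream of element II, the ATF4 and C/EBP element described next, on the opposite strand.
HYOU1 (chr11:119057254-119057413, minus strand): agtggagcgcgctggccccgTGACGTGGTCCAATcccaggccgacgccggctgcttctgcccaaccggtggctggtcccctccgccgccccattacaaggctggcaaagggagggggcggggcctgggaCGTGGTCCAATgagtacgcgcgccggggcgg
HERPUD1 (chr16:56931954-56932047, plus strand): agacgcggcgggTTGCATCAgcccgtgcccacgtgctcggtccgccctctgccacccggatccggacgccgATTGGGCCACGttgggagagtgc
SDF2L1 (chr22:21642094-21642144, plus strand): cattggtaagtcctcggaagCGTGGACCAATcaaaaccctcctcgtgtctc

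The third set holds the element bound by ATF4 with a C/EBP partner, searched as TGATGNAA, in 4 ATF4-branch members. It reads on the gene strand in ATF3, ASNS and CEBPG and on the opposite strand in CHAC1.
ATF3 (chr1:212565196-212565243, plus strand): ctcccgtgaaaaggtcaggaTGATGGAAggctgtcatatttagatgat
ASNS (chr7:97872458-97872487, minus strand): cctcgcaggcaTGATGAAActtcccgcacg
CEBPG (chr19:33374051-33374098, plus strand): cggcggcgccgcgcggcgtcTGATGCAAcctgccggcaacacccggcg
CHAC1 (chr15:40953251-40953280, plus strand): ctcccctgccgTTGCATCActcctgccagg

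With both strands searched, the ATF4 and C/EBP element was found in 7 of 36 members (19.4%), against 3.62% of all 35116 windows and 4.46% of all 27305 genes with a window. Besides the 4 printed and HERPUD1, these were SLC3A2 and SLC7A1, whose matches lie 38 to 45 and 8 to 15 bases after the start. The ER stress response element was found in 6 members (16.7%), against 27 windows of all genes (0.0769%), which belong to 25 genes (0.0916%). Element II was found in 3 members (8.33%), against 19 windows (0.0541%), which belong to 19 genes (0.0696%). The core of the unfolded protein response element was found in HYOU1 alone among the members (2.78%), against 0.729% of windows and 0.927% of genes. Of the 7 with the ATF4 and C/EBP element, 6 belong to the ATF4 branch, HERPUD1 being the other. The members were chosen by name as genes of these pathways, and the counts over all windows include them. Their higher shares are therefore no independent support for a role of these elements. A match of letters is a description of these windows and not a measured binding site.

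The places of the matches varied between members. The ER stress response element lay 52 to 34 bases before the start in XBP1, 66 to 48 in HSPA5, 80 to 62 in CRELD2 and 86 to 68 in PDIA6. HSP90B1 held 1 copy at 194 to 176 and another at 89 to 71 bases before the start, and in CALR the match lay 225 to 207 bases before it. The 30 printed bases of ASNS and of CHAC1 lie within exons of the same gene in the deposited annotation, whose exons reach upstream of the RefSeq starts used. The stretches of PDIA6 and CEBPG lie within the span of the gene but in none of its exons, and 6 bases of the downstream HSP90B1 element fall in an exon of that gene. The printed stretches of the other members touched no exon of any listed gene. The windows of members held a median of 66% G and C, against 58.7% over all windows.

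All 38 members were expressed. A level of 1 RPKM or more was reached by 38 members in HPB-ALL and by 37 in KOPTK1, STC2 being the exception, and 10 RPKM or more by 25 and 26 members. The median member stood at 17.6 RPKM in HPB-ALL and 14.7 RPKM in KOPTK1, at the 91.3rd and 89.5th percentile of all listed genes. The members spanned 1.45 to 589 RPKM in HPB-ALL and 0.572 to 455 RPKM in KOPTK1. Their order was much alike in the tables, with a Spearman's rho of 0.933 across the 38 genes, which share libraries within a line. How many neighbours in that order differ beyond replicate spread is not known. The ER branch was the more abundant, with a median of 29.9 RPKM in HPB-ALL and 16.8 RPKM in KOPTK1, against 9.57 and 12.7 RPKM for the ATF4 branch. CALR, HSP90B1 and ATF4 were the 3 highest members, in that order, in both tables, and STC2 was the lowest in both.

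Set side by side, 32 of the 38 members were higher in the HPB-ALL table and 6 in the KOPTK1 table, whereas 45.6% of the 25479 genes that reached 1 RPKM in either table were higher in HPB-ALL. A gene with no reads has a difference of -0.455 in log2 CPM, HPB-ALL minus KOPTK1, set by the prior count. This leans genes with few reads toward KOPTK1, and its part in the background shares was not computed. The median difference in log2 CPM, HPB-ALL minus KOPTK1, was 0.36 for the members and -0.05 for those genes. The middle 90% of those genes ran from -1.38 to 0.88, with 3 members (STC2, XBP1 and CRELD2) above this range and 1 (ATF3) below it. Only XBP1 and STC2 were at least 2-fold higher in HPB-ALL, in a background of 3.81%. ATF3, PPP1R15A and DDIT4 were at least 2-fold higher in KOPTK1, in a background of 8.1%. Whether these differences are present in the control libraries alone is not known. At 1.5-fold, 13 members were higher in HPB-ALL, in a background of 9.73%, and 3 in KOPTK1, in a background of 16.8%. At higher levels, 22 of the 24 members that reached 10 RPKM in both tables were higher in HPB-ALL, against 57.2% of the 7707 genes at that level. The median difference of those genes was 0.06 and their middle 90% ran more narrowly, from -0.59 to 0.57. Of the 24 members, 8 (PSAT1, SLC7A5, XBP1, HSPA5, SDF2L1, EDEM1, MANF and CRELD2) lay above that range and 1 (PPP1R15A) below it. At that level XBP1 was the 1 member at least 2-fold higher in HPB-ALL, in a background of 0.584%, and PPP1R15A the 1 at least 2-fold higher in KOPTK1, in a background of 1.13%. The branches were unlike in this respect: all 18 ER-branch members were higher in HPB-ALL, by 0.09 to 1.54 in log2 CPM with a median of 0.45, whereas the ATF4 branch held 14 members higher in HPB-ALL and all 6 that were higher in KOPTK1.

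**Figure D1:**
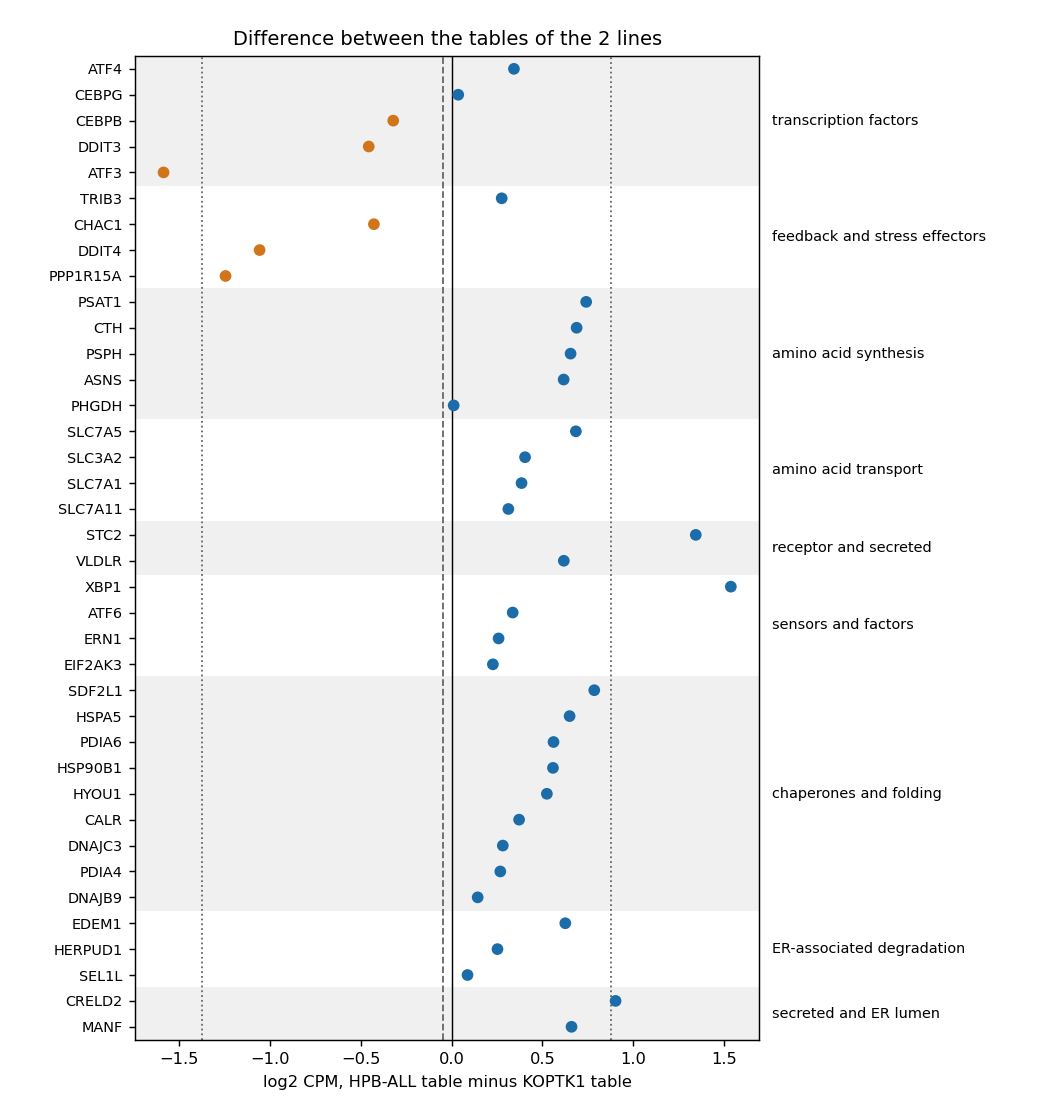
Difference in average log2 CPM of each member, HPB-ALL table minus KOPTK1 table, grouped by role, with members higher in HPB-ALL in blue and those higher in KOPTK1 in orange. The dashed line marks the median (-0.05) and the dotted lines the 5th and 95th percentile (-1.38 and 0.88) of 25479 genes. The 6 orange points are all transcription factors or feedback and stress effectors of the ATF4 branch, roles that were assigned after values were seen.

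Among the transcription factors of the ATF4 branch, ATF4 itself (chr22:39519695-39522685, GRCh38) was the most abundant in both lines, and ATF3 differed most between them. ATF4 stood at 108 RPKM in HPB-ALL and 85.0 RPKM in KOPTK1, a difference of 0.34 in log2 CPM. Its mRNA level says little of ATF4 activity, because the pathway acts on its translation. CEBPG, a C/EBP partner of ATF4, was level between the lines, at 11.6 and 11.3 RPKM. CEBPB, another partner, was lower than CEBPG in both, at 3.77 RPKM in HPB-ALL and 4.71 RPKM in KOPTK1. DDIT3 (CHOP), the factor that links prolonged stress to apoptosis, stood at 10.2 RPKM in HPB-ALL and 14.1 RPKM in KOPTK1. ATF3 (chr1:212565334-212620777), an early stress factor induced by ATF4 and by other signals, had the lowest difference of all members, -1.59 in log2 CPM. It was 3.0-fold higher in KOPTK1, at 14.1 RPKM against 4.69 RPKM in HPB-ALL, at the 4.07th percentile of the 25479 genes that reached 1 RPKM in either table. Seen within a line, ATF4 mRNA exceeded ATF3 mRNA 23.0-fold per length in HPB-ALL and 6.03-fold in KOPTK1, and exceeded DDIT3 mRNA 10.5-fold and 6.05-fold.

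Of the feedback and stress effectors, 3 of 4 were higher in KOPTK1, with a median difference of -0.74. Among the 25479 genes that reached 1 RPKM in either table, 13856 were higher in KOPTK1. This role too was assigned after values were seen, so the count is only a description. PPP1R15A (GADD34, chr19:48872392-48876057), the phosphatase subunit that dephosphorylates eIF2 and restores translation, was 2.37-fold higher in KOPTK1, at 28.2 RPKM against 11.9 RPKM in HPB-ALL. DDIT4 (REDD1, chr10:72273920-72276036), an inhibitor of mTORC1 signalling, was 2.08-fold higher in KOPTK1, at 18.5 RPKM against 8.89 RPKM. An unnamed gene on the opposite strand covers 48.5% of the DDIT4 exon bases and was listed at 8.13 RPKM in HPB-ALL and 15.1 RPKM in KOPTK1; the library kit does not mark strand, so reads of the pair cannot be told apart. CHAC1, an enzyme that degrades glutathione, was low in both lines, at 2.56 and 3.45 RPKM. TRIB3, a pseudokinase that restrains ATF4 activity, was the member of this group that stood higher in HPB-ALL, at 8.84 RPKM against 7.30 RPKM.

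All 9 amino acid genes of the ATF4 branch were higher in HPB-ALL, against 45.6% of the 25479 genes that reached 1 RPKM in either table. Since roles were assigned after values were seen, this count only describes the group. Of the 3 enzymes of serine synthesis, PHGDH and PSAT1 were above the median member in both lines and PSPH below it. PHGDH, which commits glycolytic carbon to serine, was level between the lines, at 40.7 RPKM in HPB-ALL and 40.4 RPKM in KOPTK1. PSAT1 (chr9:78297143-78330093), the next enzyme, stood at 49.3 RPKM in HPB-ALL and 29.5 RPKM in KOPTK1, a ratio of 1.67. PSPH, the last enzyme, stood at 13.9 and 8.84 RPKM, a ratio of 1.57. A copy named for it, PSPHP1, was listed at 9.89 RPKM in HPB-ALL and 3.08 RPKM in KOPTK1, and reads shared with it may be split between them. PSAT1 was above PHGDH in HPB-ALL (ratio 1.21) and below it in KOPTK1 (ratio 0.731), whereas PSAT1 over PSPH was 3.54 and 3.34. Asparagine synthetase (ASNS, chr7:97852118-97872542), the target of interest in lymphoblastic leukemia because cells that make little asparagine are sensitive to asparaginase, was one of the lowest members, at 3.19 RPKM in HPB-ALL and 2.08 RPKM in KOPTK1. Its value is uncertain, since 79.7% of its exon bases lie within another listed gene on the same strand (ENSG00000284707, 2.78 and 2.35 RPKM), and the rule for shared reads is not stated in the sources used here. Shared reads were not all discarded. The 131 bases of ENSG00000284503 all lie within HSP90B1 exons on the same strand, yet that gene was listed at 109 RPKM in HPB-ALL and 78.2 RPKM in KOPTK1. CTH, which makes cysteine from cystathionine, was also low, at 3.76 and 2.33 RPKM.

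The amino acid transporters differed in level by far more than they differed between the lines. SLC7A5 (LAT1, chr16:87830023-87869488), the light chain that carries large neutral amino acids, was the highest of them, at 87.3 RPKM in HPB-ALL and 54.3 RPKM in KOPTK1, a ratio of 1.61. Copies named for it, SLC7A5P1 and SLC7A5P2, were listed at 27.2 and 31.3 RPKM in HPB-ALL and at 35.5 and 35.8 RPKM in KOPTK1, and reads shared by these copies may be split among them. SLC3A2 (CD98 heavy chain), which pairs with SLC7A5 and with SLC7A11, stood at 46.3 and 35.0 RPKM. SLC7A11 (xCT), the cystine carrier, was scarce, at 2.16 and 1.74 RPKM. Per length, SLC7A5 exceeded its heavy chain 1.88-fold in HPB-ALL and 1.55-fold in KOPTK1, while SLC7A11 was 0.0466 and 0.0497 of it. SLC7A1, the carrier of cationic amino acids, stood at 34.2 and 26.2 RPKM. The remaining ATF4-branch members were also low. VLDLR, a lipoprotein receptor, stood at 2.87 RPKM in HPB-ALL and 1.87 RPKM in KOPTK1. STC2 (chr5:173314713-173329503), a secreted glycoprotein, stood at 1.45 and 0.572 RPKM, a ratio of 2.54, and was the lowest member in both lines.

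Of the sensors of the ER branch, all 3 were low to moderate and near one another in the 2 lines. ERN1 stood at 6.65 RPKM in HPB-ALL and 5.56 RPKM in KOPTK1. EIF2AK3 stood at 6.68 and 5.70 RPKM, and ATF6 was higher, at 22.6 and 17.9 RPKM. Their differences ran from 0.23 to 0.34 in log2 CPM. XBP1 (chr22:28794555-28800597), the substrate of IRE1, stood apart from them: it was 2.90-fold higher in HPB-ALL, at 36.2 RPKM against 12.5 RPKM in KOPTK1. This difference of 1.54 in log2 CPM was the highest of the 38 members and stood at the 99.3rd percentile of the 25479 genes. Counts per gene do not separate the spliced from the unspliced XBP1 mRNA, so the level gives no reading of IRE1 activity. A processed copy, XBP1P1, was listed at 3.94 and 2.76 RPKM.

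The 9 chaperones and folding enzymes, a role assigned after values were seen, were all higher in HPB-ALL, by 0.14 to 0.79 in log2 CPM. Their median difference was 0.52. Of all genes at 10 RPKM or more in both tables, 57.2% were higher in HPB-ALL. Calreticulin (CALR, chr19:12938607-12944489), the lectin chaperone of the ER lumen that also buffers calcium, was the most abundant member, at 589 RPKM in HPB-ALL and 455 RPKM in KOPTK1. HSP90B1 (GRP94), the HSP90 of the ER, followed at 145 and 98.8 RPKM. HSPA5 (BiP, chr9:125234853-125241330), the HSP70 of the ER and the usual gauge of the unfolded protein response, stood at 82.9 and 52.9 RPKM, a ratio of 1.57. HYOU1 (GRP170), its nucleotide exchange factor, stood at 67.6 and 47.0 RPKM. BiP mRNA exceeded that of HYOU1 1.23-fold in HPB-ALL and 1.13-fold in KOPTK1. The J-domain partners of BiP were less abundant. DNAJC3 (p58IPK), which also inhibits eIF2 kinases, stood at 16.5 and 13.6 RPKM, and DNAJB9 (ERdj4), which restrains IRE1, at 6.93 and 6.27 RPKM. Per length, BiP mRNA was 12.0-fold that of DNAJB9 in HPB-ALL and 8.43-fold in KOPTK1. SDF2L1, a stress-induced cofactor of ER J-domain proteins, showed the highest ratio of the group, 1.72, at 24.4 and 14.1 RPKM. Of the protein disulfide isomerases, PDIA4 stood at 60.5 and 50.2 RPKM and PDIA6 at 39.1 and 26.5 RPKM. Opposite-strand genes cover 29.7% of the exon bases of PDIA6, 14.2% of those of CALR and 14.1% of those of HYOU1.

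ER-associated degradation was represented by 3 members, with EDEM1 the highest in both lines. EDEM1, a lectin that directs misfolded glycoproteins to degradation, stood at 35.4 RPKM in HPB-ALL and 22.9 RPKM in KOPTK1. HERPUD1, a membrane component of the degradation complex, stood at 18.7 and 15.7 RPKM. SEL1L, the adaptor of the ubiquitin ligase HRD1, had the smallest difference of the ER branch, 0.09 in log2 CPM, at 16.1 and 15.2 RPKM. The secreted ER-lumen proteins differed more. CRELD2 (chr22:49918635-49927540) was 1.87-fold higher in HPB-ALL, at 19.8 RPKM against 10.6 RPKM, at the 95.3rd percentile of the 25479 genes. MANF, a factor that associates with BiP and is released under ER stress, stood at 53.8 and 34.0 RPKM.

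Members were also grouped by the printed elements. The 9 members with an ER stress response element of either form had a median difference of 0.56 in log2 CPM, from 0.25 in HERPUD1 to 1.54 in XBP1, and a median level of 39.1 RPKM in HPB-ALL and 26.5 RPKM in KOPTK1. The 27 members with a window and neither form had a median difference of 0.28, and 21 of them were higher in HPB-ALL. All 9 with an element belong to the ER branch. The other 9 ER-branch members, which have neither form, had a median difference of 0.27, from 0.09 in SEL1L to 0.66 in MANF, and a median level of 16.5 RPKM in HPB-ALL and 15.2 RPKM in KOPTK1. The ranges of the 2 sets of the branch overlap, and the difference between them was not tested. Of the 7 members with the ATF4 and C/EBP element, 5 were higher in HPB-ALL, with a median difference of 0.25. Of the 29 without it 25 were higher, with a median of 0.37. The ER branch, wholly higher in HPB-ALL, makes up 17 of the 29 but 1 of the 7. Element and branch therefore cannot be told apart in these counts. Of all genes that reached 1 RPKM in either table, 45.6% were higher in HPB-ALL. ATF3 and CHAC1, which carry the ATF4 and C/EBP element, were higher in KOPTK1, whereas ASNS, SLC3A2, SLC7A1, CEBPG and HERPUD1 were higher in HPB-ALL.

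Wider lists of the same pathways were set beside the members. Of 20 cytosolic tRNA synthetases, many of them ATF4 targets, 19 were higher in HPB-ALL, with a median of 0.39 in log2 CPM. All 20 reached 10 RPKM in both tables, a level at which 57.2% of genes were higher in HPB-ALL, with a median of 0.06. WARS1 (0.63), FARSA (0.56) and TARS1 (0.55) had the highest differences, and LARS1 (-0.04), VARS1 (0.03) and QARS1 (0.11) the lowest. Of 11 expressed genes of amino acid and one-carbon metabolism, 9 were higher in HPB-ALL, with a median of 0.27. Among all genes that reached 1 RPKM in either table, 45.6% were higher in HPB-ALL, with a median of -0.05. NARS1 (0.25) is in this metabolism list and among the tRNA synthetases and was counted in both. PYCR1 of proline synthesis (0.67), the glutamine carrier SLC1A5 (0.62) and the mitochondrial folate enzyme MTHFD2 (0.60) led that list, and GPT2 (-0.25), SLC38A2 (-0.07) and GOT1 (0.14) closed it.

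Other ER genes were close to the ER-branch members. The shares of all genes higher in HPB-ALL were 45.6% at 1 RPKM in either table and 57.2% at 10 RPKM in both. Of 24 genes of ER folding, redox and translocation, 21 were higher in HPB-ALL, with a median of 0.35. The retrieval receptor KDELR2 (0.88), the glycoprotein folding sensor UGGT1 (0.69) and TXNDC5 (0.68) had the highest differences, and KDELR3 (-0.20), ATF6B (-0.18) and ERO1B (-0.17) the lowest. Of 20 further genes of ER-associated degradation, 17 were higher in HPB-ALL, with a median of 0.25. SELENOS (0.70), UFD1 (0.64) and DERL2 (0.55) had the highest differences. HM13 (-0.16) and NPLOC4 (-0.05) were among the 3 lowest, and DERL3 was 2.09-fold higher in KOPTK1, at 3.46 RPKM against 1.66 RPKM.

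The upstream part of the integrated stress response was mixed. Of 19 expressed kinases, eIF2 and eIF2B subunits and other factors, 13 were higher in HPB-ALL, with a median of 0.05. These genes were kept at 1 RPKM in either table, a level at which 45.6% of all genes were higher in HPB-ALL, with a median of -0.05. A level of 10 RPKM was reached by 16 of them in HPB-ALL and 17 in KOPTK1. Of all genes at 10 RPKM or more in both tables, 57.2% were higher in HPB-ALL, with a median of 0.06. The kinases of eIF2 other than PERK differed in direction. EIF2AK1 (HRI), the kinase that responds to heme and mitochondrial stress, stood at 45.0 RPKM in HPB-ALL and 26.4 RPKM in KOPTK1. EIF2AK2 (PKR), the kinase that responds to double-stranded RNA, was 2.07-fold higher in KOPTK1, at 24.7 RPKM against 12.0 RPKM. EIF2B4 (0.49) and EIF2B1 (0.38) of the exchange factor were next to EIF2AK1 at the top. JUN, a dimer partner of ATF3, was lowest, 3.70-fold higher in KOPTK1 at 34.2 RPKM against 9.25 RPKM, and SESN2 (-0.39), an inhibitor of mTORC1, was next above EIF2AK2 at the bottom.

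Some facts of the tables bear on these values. SHQ1, the target of the shRNA, stood at 59.5 RPKM in HPB-ALL and 43.2 RPKM in KOPTK1 over control and depleted libraries together, so these averages do not check the depletion. T-lineage markers were present in both lines: CD3D stood at 295 and 301 RPKM, and the 12 markers summed to 1010 and 1044 RPKM, with CD4 under 1 RPKM in both tables and CD8A under 1 RPKM in HPB-ALL. The B-lineage gene CD79A stood at 43.3 and 16.1 RPKM and made up most of the summed level of 5 B-lineage markers, 44.3 and 17.8 RPKM. None of 5 myeloid and none of 3 erythroid markers reached 1 RPKM in either table. Of 3 markers of stroma and fibroblasts, COL1A1 stood at 1.40 and 1.15 RPKM, and the 3 summed to 1.54 and 2.08 RPKM. The part of cells with these markers in the member differences was not tested.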

How the data were processed

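The 12 libraries were grouped by title into control and SHQ1 shRNA groups of each line. The submitters' processing notes name Trimmomatic 0.36, STAR 2.5.4b, Picard 2.18.7, featureCounts 1.6.2, edgeR 3.22.3 and hg38. All 38 members lay at their RefSeq GRCh38.p14 position, although the paper's methods name hg19 and Bowtie 2. The methods give the TruSeq RNA Library Prep Kit v2, which does not mark strand.

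The authors deposited 1 table per line with exon coordinates, gene length and an average log2 CPM, read from its heading as edgeR's average over all libraries of the table. The tables also hold log2 fold changes, F statistics, p-values and FDR values from the authors' own comparison, which were not used. The 12 per-library columns carry numbers that match no label and were not used. The tests of SHQ1 depletion planned in each line (edgeR, with limma for RPKM) could therefore not be run, and depth is unknown. Symbols were found for 95.9% of gene identifiers.

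For mean RPKM, the deposited log2 average was turned back to CPM and divided by kilobases of summed exon. CPM summed to 1002900 over the HPB-ALL table and 1004270 over the KOPTK1 table. A gene with no reads keeps an average set by a prior count, -4.36 in HPB-ALL and -3.90 in KOPTK1, and the lowest members stood at 2.40 (CHAC1) and 1.62 (STC2). Genes entered the comparison if they reached 1 RPKM in either table. Differences were described by counts and medians, with no test. Motifs were matched by letters on both strands of RefSeq promoter windows. Scripts used Python 3.11.15 with pandas 2.3.3, numpy 2.4.6, scipy 1.17.1 and matplotlib 3.10.9, and were checked on simulated data.

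The members and lists were chosen with earlier results of these data known. All 38 members are named, and of each wider list the 3 genes with the highest and the 3 with the lowest difference. Roles were assigned from textbook knowledge after values were seen.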

Additional observations from a re-analysis of the deposited data

How the results depend on the processing

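No paired analysis was possible because the columns of single libraries match no sample, and other settings of the tests of SHQ1 depletion (normalization, filter, DESeq2, leaving out each replicate, replicate block, centring and a minimum change of 1.5-fold) were not run for the same reason. The 32 alternatives computed, over 12 results, gave an equal value in 13 cases, a count within 1.5 times of the main one in 6 and another value in 13, and reversed 0. Only the median difference could have changed sign, so no reversal was possible for counts and percentiles. The setting without a filter left the same 38 members, so its values were equal by construction. Counts among the 24 members at 10 RPKM in both tables were compared as they stood, without regard to the smaller total. Ranked among protein-coding genes, the median member stood at the 78.1st percentile in HPB-ALL and the 74.5th in KOPTK1. The median difference of the members was 0.38 when centred on the median of the 22430 genes that reached 1 RPKM in both tables (-0.02), 0.39 for the 24 members that reached 10 RPKM in both, and 0.34 without ASNS, an alternative chosen after seeing the data. Among those 24, 1 member (XBP1) was at least 2-fold higher in HPB-ALL (0.584% of genes at that level) and 1 (PPP1R15A) in KOPTK1 (1.13%). At 1.5-fold 13 members were higher in HPB-ALL (9.73% of genes) and 3 in KOPTK1 (16.8%), and at 4-fold 0 in either line. The share of all genes at 4-fold was not computed. The ATF4 and C/EBP element was held by 4 members in the 200 bases before the start, and by 4 on the gene strand alone, where element II was held by 1. Depth, and with it the error of low members such as STC2, was not known.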

Other observations

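The same elements were searched in the promoter windows of the genes in the wider lists, with the members left out, which gave 102 windows of 78 genes. These genes too were chosen by name from the same pathways, and the counts over all genes include them. The ATF4 and C/EBP element was found in 13 genes (16.7%), against 4.46% of all genes with a window. These were 7 cytosolic tRNA synthetases (AARS1, CARS1, GARS1, IARS1, MARS1, NARS1 and TARS1), the neutral amino acid carriers SLC1A4 and SLC1A5, the aminotransferase GOT1, the eIF2 phosphatase subunit PPP1R15B, the ER membrane factor CREB3L2 and the hormone FGF21. The ER stress response element was found in 3 genes (3.85%), the oxidoreductase ERO1B, the lectin chaperone CANX and EIF2A, and element II in 0. The core of the unfolded protein response element, found in 1 member, was found in 7 of these genes (8.97%), against 0.927% of all genes: the ER reductase DNAJC10, the disulfide isomerase TXNDC5, the ubiquitin enzyme UBE2J1, the ATPase VCP, the retrieval receptor KDELR3, ALDH18A1 and CARS1. CARS1 held both the ATF4 and C/EBP element and this core.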
